A study of Homo sapiens with 12 samples.

Results

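The prostate kallikreins KLK3, KLK2, KLK4 and KLK15 and the pseudogene KLKP1 were followed across 12 RNA libraries of human prostate cancer cells. These 5 of the 60675 listed genes were taken by symbol from the kallikrein locus of chromosome 19 rather than by a cut on their values. Kallikrein-related peptidases are secreted serine proteases encoded side by side in a gene cluster, and those of the prostate are made by luminal epithelial cells under androgen control. KLK3 encodes prostate-specific antigen (PSA), the serum marker of prostate cancer, which cleaves the semenogelins to liquefy semen. KLK2 encodes a trypsin-like protease that can activate the PSA precursor, KLK4 another trypsin-like protease also known from tooth enamel, and KLK15 a further relative that can activate the PSA precursor, whereas KLKP1 is a pseudogene.

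By their labels the cells were LNCaP, an androgen-dependent line, and its castration-resistant derivative LNCaP:C42 (C4-2 below). Every culture received R1881, a synthetic androgen, at 1 nM, so no group shows the kallikreins without androgen. The inhibitors were namoline, directed at the histone demethylase KDM1A, at 50 µM, and TCE-5002, directed at the demethylase KDM7A. The study states that TCE-5002 also acts on the demethylases KDM7B (PHF8) and KDM2A. TCE-5002 stands at 100 µM in the series description and at a lower dose in the study's methods, and treatment lasted 72 h. C4-2 made up 4 groups (R1881 alone, plus namoline, plus TCE-5002, and plus both, called the combination) and LNCaP 2 groups (R1881 alone and the combination), with 2 libraries in each of the 6. The study describes its replicates as biological, and its question was what inhibition of KDM1A, of KDM7A and of both does to androgen-regulated expression in both lines.

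Library totals ran from 14791602 to 20690819 counts. The 4 libraries labelled LNCaP stood apart in cell type markers. Their summed level of 7 luminal epithelial markers was 160 to 228 CPM (counts per library scaled to a common total), against 1729 to 2299 CPM in C4-2, and their 5 mesenchymal markers summed to 765 to 940 CPM, against 18.2 to 50.0 CPM. Their 4 neuroendocrine markers summed to 62.2 to 77.9 CPM, against 7.22 to 36.9 CPM. The sums of 4 prostate luminal markers, KLK3 among them, overlapped (143 to 525 CPM, against 322 to 2100 CPM). They are therefore called the libraries labelled LNCaP, and what this marker difference contributes to any kallikrein difference between the lines was not tested. The alignment named in the header of LNCaP combination replicate 1 mentions namoline and no TCE-5002, while its title gives both, so the kallikrein fold changes and the list counts of the LNCaP combination are also given without that library. Differences between replicates followed transcript GC content in every group, with Spearman rho across genes from -0.78 in C4-2 TCE-5002 to 0.62 in the LNCaP combination.

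Within the locus the files give, on GRCh38, KLK15 (ENSG00000174562) at chr19:50825289-50837213 on the minus strand, KLK3 (ENSG00000142515) at chr19:50854915-50860764 on the plus strand, KLK2 (ENSG00000167751) at chr19:50861568-50880567 on the plus strand, KLKP1 (ENSG00000197588) at chr19:50882096-50896398 on the minus strand and KLK4 (ENSG00000167749) at chr19:50906352-50910738 on the minus strand. KLK3 and KLK2 are thus neighbours on the same strand, and KLKP1 lies between KLK2 and KLK4. Counting did not use strand, and the span of KLK15 alone overlaps that of another listed gene (ENSG00000267968). What this overlap does to the counts of KLK15 was not tested.

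KLK3 and KLK2, the pair whose levels moved most alike across the C4-2 libraries, have upstream stretches that align over most of their length. No other pair was aligned, and any link between this likeness and the levels was not tested. The 250 bases before the RefSeq start of each (GRCh38.p14, plus strand) are shown with the 15-base androgen response element of KLK3, and the stretch aligned with it in KLK2, in capitals. The KLK3 stretch is chr19:50854665-50854914 and the KLK2 stretch is chr19:50873189-50873438, which in the files' annotation falls inside an exon block of KLK2.
KLK3: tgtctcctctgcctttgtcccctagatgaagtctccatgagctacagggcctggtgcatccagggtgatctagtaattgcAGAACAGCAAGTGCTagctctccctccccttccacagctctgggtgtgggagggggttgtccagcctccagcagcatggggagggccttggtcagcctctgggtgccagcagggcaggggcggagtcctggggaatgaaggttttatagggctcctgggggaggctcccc
KLK2: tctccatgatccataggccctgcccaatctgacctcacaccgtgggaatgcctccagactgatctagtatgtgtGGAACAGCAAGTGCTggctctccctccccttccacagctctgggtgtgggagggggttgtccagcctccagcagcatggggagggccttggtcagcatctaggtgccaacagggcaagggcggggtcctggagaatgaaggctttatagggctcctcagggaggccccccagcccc

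Of 241 aligned bases 205 were identical (85.1%). The element began at position -170 in KLK3 and at -176 in KLK2, counted from the start site, and differed by A1G, counted from 1 at the element's 5′ end with the KLK3 base first. The hexamer AGAACA, or its reverse complement TGTTCT, was found once in the KLK3 stretch and in none of the stretches of KLK2, KLK4 or KLK15. It occurred in 12.4% of 35116 RefSeq upstream stretches of this length, and the KLK2 form GGAACA, searched on both strands as well, in 11.6%. The form GGAACA is not particular to KLK2 in the locus, since the KLK4 stretch at chr19:50911396-50911645 holds it too. The palindrome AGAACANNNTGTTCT was in no kallikrein stretch and in 1 stretch overall. These are matches of letters within 250 bases only. KLKP1 had no entry in the RefSeq table, so 4 of 5 genes were matched.

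Under R1881 alone, KLK3 and KLK4 were the most abundant kallikreins of C4-2 when levels were set per gene length, as TPM (counts over gene length, scaled to a common total). KLK4 stood at 178 and 193 TPM and KLK3 at 168 and 178 TPM, a pair of ranges that overlapped. KLK2 followed at 81.5 and 82.7 TPM, KLK15 at 25.8 and 23.0 TPM and KLKP1 at 8.15 and 7.76 TPM, each separate from its neighbours in this order. KLK2 was divided by the longest exon length of the 5 (6394 bases, against 4639 for KLK3 and 1935 for KLK4), which includes blocks upstream of its RefSeq start. The length used for KLK3 lies in 3 blocks that fill most of its span of 5850 bases, whereas that of KLK4 lies in 5 blocks over 4387 bases. In counts KLK3 stood above KLK4 in C4-2, at 4393 and 3508 against 1944 and 1587, so their order depends on these lengths. In the libraries labelled LNCaP the order differed, with KLK3 at 369 and 329 TPM well above the others. KLK4 (56.7 and 45.0 TPM) and KLK2 (55.9 and 43.1 TPM) overlapped there, KLKP1 reached 17.5 and 18.8 TPM, and KLK15 was near the bottom of detection at 0.97 and 0.86 TPM. Per gene, levels are given below as CPM scaled over all 12 libraries.

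**Figure D1:**
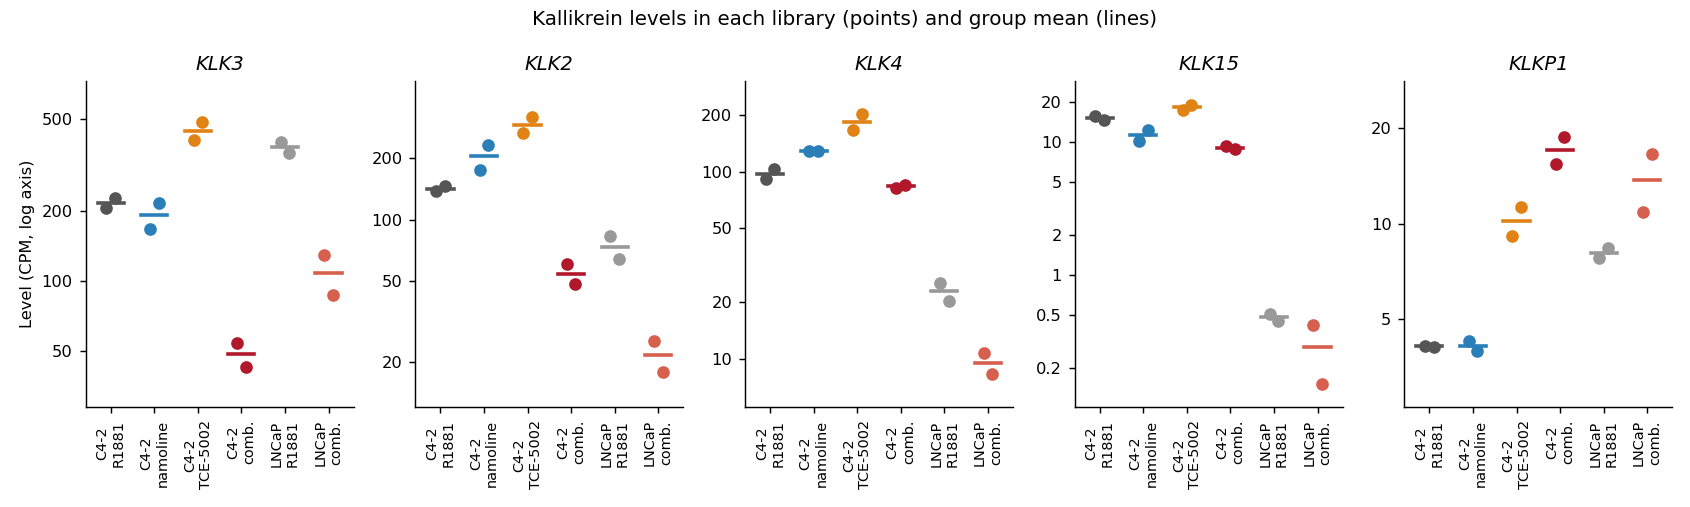
Level of each kallikrein in CPM (log axis, its own range in each panel) in the 6 groups, with points for the 2 libraries of a group and a line for their mean. KLK3, KLK2 and KLK4 were highest in C4-2 with TCE-5002 and lower in the combination, whereas KLKP1 was higher in the combination than under R1881 in both lines.

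Setting the lines side by side under R1881 alone, 2 of 5 kallikreins differed at least 2-fold at an adjusted p under 0.05 (the study's rule, called past the threshold below, with p from edgeR's quasi-likelihood test over all genes), where 50.4% of all genes did. KLK15 was higher in C4-2, at 15.7 and 14.6 CPM against 0.51 and 0.46 CPM (11 and 10 counts), a log2 difference of 4.98 ± 0.27 (SE, adjusted p = 2.1e-15). KLK4 was higher in C4-2 as well, at 91.1 and 103 CPM against 25.4 and 20.3 CPM, a log2 difference of 2.11 ± 0.11 (adjusted p = 2.8e-15). Both genes were thus well separated between the lines, in either library of each. KLK2 was 1.97-fold higher in C4-2 (log2 0.98, adjusted p = 7.8e-06), just under the 2-fold condition. KLK3 was lower in C4-2, with a log2 difference of -0.77 (adjusted p = 0.00075), and so was KLKP1 at -0.94 (adjusted p = 0.00019). The kallikreins therefore did not share a direction between the lines. Without LNCaP R1881 replicate 1, 4 kallikreins passed, with KLK2 at 1.15 and KLKP1 at -1.03, and without C4-2 R1881 replicate 1 KLK2 passed at 1.01.

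Namoline alone moved the kallikreins of C4-2 little. KLK3 stood at 167 and 217 CPM, a range that overlapped the 206 and 228 CPM under R1881, and its log2 fold change of -0.19 ± 0.15 did not pass the test (adjusted p = 0.33). KLK2 stood at 176 and 233 CPM, above 138 and 146 CPM, a log2 fold change of 0.51 ± 0.15 (adjusted p = 0.013). KLK4 stood at 128 and 129 CPM, above 91.1 and 103 CPM, with a log2 fold change of 0.39 ± 0.12 (adjusted p = 0.018). KLK15 went the other way, at 10.2 and 12.2 CPM against 15.7 and 14.6 CPM, with a log2 fold change of -0.45 ± 0.16 (adjusted p = 0.039). KLKP1 was level at 4.26 and 3.96 CPM against 4.12 and 4.10 CPM. None of these changes reached 2-fold, so 0 of 5 kallikreins passed the threshold by edgeR and 0 by DESeq2. By edgeR 3 had an adjusted p under 0.05, as did 6218 of all 17702 genes tested. Across all genes tested, 5.16% were past the threshold upwards and 6.90% downwards. Whether RNA per cell or the share of cells carrying it differs cannot be told apart in such bulk samples, here and in the results that follow.

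TCE-5002 alone raised 3 of the 5 kallikreins past the threshold, KLK3, KLK2 and KLKP1, where 5.07% of all genes passed upwards and 6.83% downwards. KLK3 rose to 405 and 485 CPM, a log2 fold change of 1.04 ± 0.15 (adjusted p = 6.7e-05). KLK2 rose to 266 and 320 CPM, a log2 fold change of 1.05 ± 0.15 (adjusted p = 6.5e-05). For both genes each treated library lay above both R1881 libraries. The pseudogene KLKP1 rose to 9.12 and 11.3 CPM, a log2 fold change of 1.31 ± 0.20 (adjusted p = 0.00011). KLK4 stood at 166 and 203 CPM, again above both R1881 libraries, and its log2 fold change of 0.93 ± 0.12 (adjusted p = 3.2e-05) fell short of 2-fold. KLK15 stood at 17.4 and 19.0 CPM, a log2 fold change of 0.27 ± 0.16 (adjusted p = 0.19).

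The changes of KLK3 and KLK2 under TCE-5002 lay close to the 2-fold line. They were 0.91 and 0.92 without C4-2 TCE-5002 replicate 2, which left KLKP1 alone past the threshold, and 0.92 and 0.98 with transcript GC content corrected. KLK3 was 0.98 without C4-2 R1881 replicate 1, and KLK4 passed at 1.02 without C4-2 R1881 replicate 2 and at 1.06 without C4-2 TCE-5002 replicate 1.

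Compared directly, the inhibitors differed for 2 of 5 kallikreins past the threshold, against 5.01% of all genes in either direction. KLK3 was 2.34-fold higher with TCE-5002 than with namoline (log2 1.23 ± 0.15, adjusted p = 5.9e-05), and KLKP1 was 2.51-fold higher (log2 1.33 ± 0.20, adjusted p = 0.00034). Libraries of the 2 treatments did not overlap for either gene. KLK15, KLK4 and KLK2 were also higher with TCE-5002, at log2 differences of 0.72, 0.54 and 0.53 (adjusted p = 0.0057, 0.0058 and 0.018), below 2-fold. All 5 genes were therefore higher with TCE-5002 than with namoline at an adjusted p under 0.05, at the doses used. Of all 17702 genes tested, 1678 were higher and 1595 lower by adjusted p alone.

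The combination lowered KLK3 and KLK2 of C4-2 and raised KLKP1, 3 of 5 genes past the threshold, where 8.90% of all genes passed upwards and 12.8% downwards. KLK3 fell to 54.1 and 42.6 CPM from 206 and 228 CPM, a log2 fold change of -2.19 ± 0.15 (adjusted p = 3.7e-08), or 4.55-fold lower. KLK2 fell to 60.7 and 48.2 CPM from 138 and 146 CPM, a log2 fold change of -1.41 ± 0.15 (adjusted p = 2.3e-06). In both genes the highest combination library lay below the lowest R1881 library. KLKP1 rose to 15.5 and 18.7 CPM from 4.12 and 4.10 CPM, a log2 fold change of 2.03 ± 0.19 (adjusted p = 7.3e-07), or 4.07-fold higher. KLK15 stood at 9.32 and 8.77 CPM, below both R1881 libraries, with a log2 fold change of -0.77 ± 0.16 (adjusted p = 0.0011) that fell short of 2-fold. KLK4 stood at 81.8 and 84.9 CPM, just under the R1881 libraries, and its log2 fold change of -0.25 ± 0.12 did not pass the test (adjusted p = 0.10, 95% interval -0.50 to 0.01). Genes of the locus thus changed unequally, with KLKP1 rising between KLK2, which fell, and KLK4, which did not pass.

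**Figure D2:**
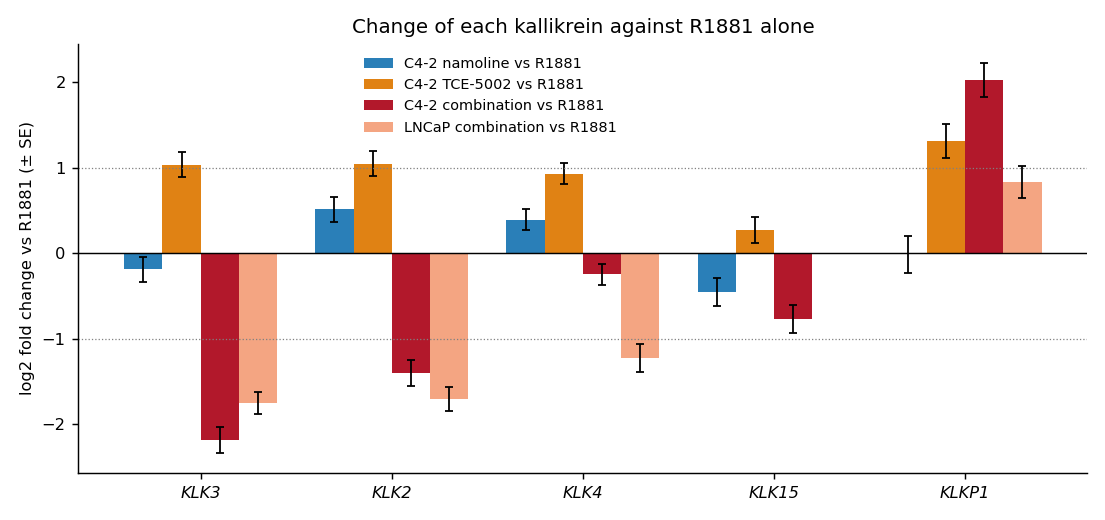
Log2 fold change against R1881 alone (bars, error bars are SE) for each kallikrein for the 3 treatments of C4-2 and for the combination in LNCaP-labelled libraries. Dotted lines mark a 2-fold change in either direction. KLK15 has no LNCaP bar because its counts were too low for the test there, and KLK3 and KLK2 rose with TCE-5002 and fell with the combination.

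Set against TCE-5002 alone, the combination gave larger falls of KLK3 and KLK2 than any other comparison of groups made here. Here 4 of 5 passed the threshold, against 26.1% of all genes. KLK3 was 9.35-fold lower in the combination (log2 -3.22 ± 0.16, adjusted p = 6.8e-10) and KLK2 5.47-fold lower (log2 -2.45 ± 0.15, adjusted p = 7.3e-09). KLK4 was 2.26-fold lower (log2 -1.17 ± 0.12, adjusted p = 9.3e-07) and KLK15 2.05-fold lower (log2 -1.04 ± 0.16, adjusted p = 6.0e-05). KLKP1 was higher by 0.71 ± 0.18 on the log2 scale (adjusted p = 0.0028), under 2-fold. The 4 protein-coding genes thus shared a direction that the pseudogene did not. The calls of KLK4 and KLK15 were lost with GC corrected, at -0.92 and -0.89. That of KLK15 was lost as well without C4-2 TCE-5002 replicate 2 and without C4-2 combination replicate 2, at -0.98 in each case, and by RLE scaling and by DESeq2, where KLK15 was just short of 2-fold.

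Set against namoline alone, 3 of 5 passed, against 27.5% of all genes. KLK3 was 3.99-fold lower (adjusted p = 4.7e-08) and KLK2 3.78-fold lower (log2 -1.92 ± 0.15, adjusted p = 6.4e-08). KLKP1 was 4.11-fold higher (log2 2.04 ± 0.19, adjusted p = 3.9e-07). KLK4 was lower by less than 2-fold (log2 -0.64, adjusted p = 0.00032), and KLK15 did not pass the test (log2 -0.32, adjusted p = 0.12).

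The combination differed from the sum of the single treatments for the 3 main prostate kallikreins. The interaction, the log2 change of the combination beyond the summed changes of both single treatments, passed the threshold for 3 of 5 genes, against 35.3% of all genes. It was -3.03 ± 0.21 for KLK3 (adjusted p = 1.6e-08), -2.96 ± 0.21 for KLK2 (adjusted p = 1.9e-08) and -1.57 ± 0.17 for KLK4 (adjusted p = 1.6e-06). KLK4 thus had a called interaction although its combination level was within 2-fold of R1881, since both single treatments had left it higher. KLK15 and KLKP1 had interactions of -0.58 and 0.73 (adjusted p = 0.041 and 0.037), neither past 2-fold.

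In the libraries labelled LNCaP, the combination lowered KLK3, KLK2 and KLK4, 3 of the 4 kallikreins that could be tested, where 7.40% of all genes passed upwards and 11.3% downwards. KLK3 fell to 129 and 86.6 CPM from 397 and 355 CPM, a log2 fold change of -1.75 ± 0.13 (adjusted p = 1.4e-12). KLK2, on the length-scaled level, fell to 16.8 and 11.5 TPM from 55.9 and 43.1 TPM, with a log2 fold change of -1.71 ± 0.14 (adjusted p = 9.8e-12). KLK4 fell to 10.7 and 8.23 CPM from 25.4 and 20.3 CPM, a log2 fold change of -1.22 ± 0.16 (adjusted p = 1.1e-07). No combination library reached the R1881 libraries in any of these genes. KLKP1 stood at 10.9 and 16.6 CPM, above 7.78 and 8.38 CPM, with a log2 fold change of 0.83 ± 0.19 (adjusted p = 0.00027) that fell short of 2-fold. KLK15 had 7 and 3 counts against 11 and 10 and was not tested.

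Without LNCaP combination replicate 1, the library whose header names no TCE-5002, the log2 fold changes were -2.07 for KLK3, -1.98 for KLK2, -1.42 for KLK4 and 1.09 for KLKP1, which then passed. That library lay nearer to R1881 than its partner in each of these 4 genes. The fall of KLK4 was -0.85 with GC corrected, under 2-fold. KLK4 had the highest transcript GC content of the 5 genes, at 61.0%.

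The effect of the combination differed between the lines past the threshold for 1 of 5 kallikreins, against 25.4% of all genes. This was KLKP1, which rose more in C4-2, with a difference of 1.14 ± 0.27 on the log2 scale (adjusted p = 0.00087). KLK4 fell less in C4-2, with a difference of 0.93 ± 0.17 (adjusted p = 6.3e-05) that was under 2-fold. For KLK3 the difference was -0.49 ± 0.23 (adjusted p = 0.11, 95% interval -0.99 to 0.02) and for KLK2 0.25 ± 0.21 (adjusted p = 0.35, 95% interval -0.20 to 0.70). Neither difference reached 2-fold, and that of KLK3 has an interval ending near it. KLK15 gave -0.09 ± 0.71, which its LNCaP counts cannot resolve.

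Leaving out LNCaP combination replicate 1 took KLKP1 to 0.86, under 2-fold, and KLK4 to 1.10, past it. KLK4 also passed without LNCaP R1881 replicate 2 (1.19) and without C4-2 R1881 replicate 2 (1.00). Without LNCaP combination replicate 2, the difference of KLK3 was -0.75 (adjusted p = 4.5e-06), and without replicate 1 it was -0.19 (adjusted p = 0.27). KLK2 was 0.50 (adjusted p = 0.037) without LNCaP combination replicate 1.

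**Figure D3:**
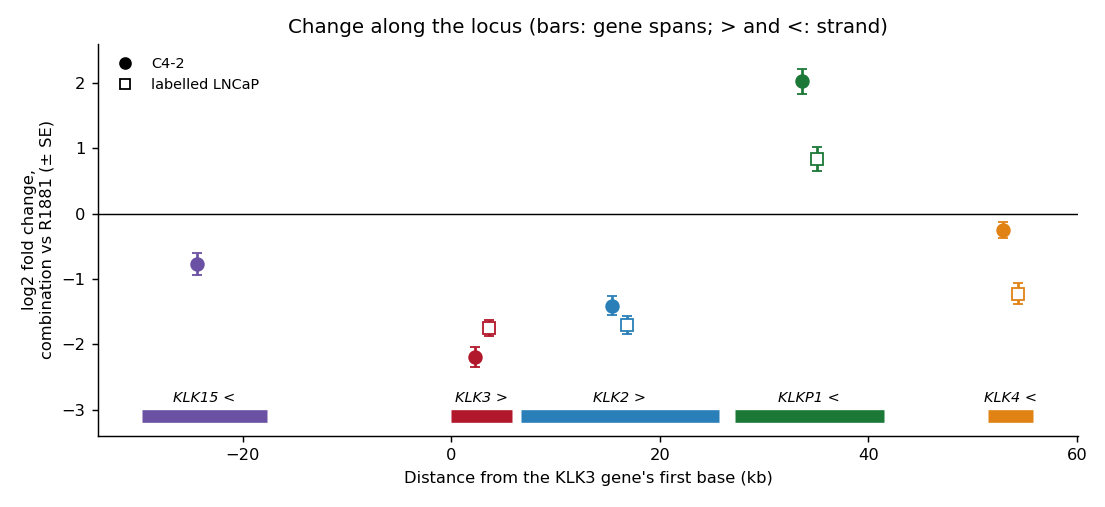
Log2 fold change of the combination against R1881 (vertical axis, error bars are SE) for each kallikrein by its distance in kb from the first base of KLK3, in C4-2 (filled circles) and in the libraries labelled LNCaP (open squares). Bars under the points are the gene spans. KLKP1, between KLK2 and KLK4, is the gene above 0 in both lines, and KLK15 is shown for C4-2 only.

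The division of the kallikrein counts among the 5 genes changed with the combination. The 5 genes together took 0.0478% and 0.0516% of all counts in C4-2 with R1881, 0.0457% and 0.0548% with namoline and 0.0827% and 0.104% with TCE-5002. In the combination they took 0.0213% and 0.0186%. Within that sum, KLK3 made up 45.3% and 46.0% of the counts under R1881 and 24.4% and 21.0% in the combination. KLK4 went from 20.0% and 20.8% to 36.9% and 41.8%, which made it the gene with most counts of the 5. These counts were not divided by gene length, and by TPM, which rests on the annotated lengths, KLK4 already overlapped KLK3 under R1881, as given above. KLKP1 went from 0.91% and 0.83% to 6.98% and 9.21%. In the libraries labelled LNCaP KLK3 kept the largest share, 77.3% and 79.2% under R1881 and 73.0% and 66.8% in the combination, while KLKP1 went from 1.51% and 1.87% to 6.20% and 12.8%. Shares of a common sum depend on each other, so they were not tested.

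Ratios within a library do not depend on scaling between libraries. The log2 ratio of KLKP1 to KLK3 counts was between -5.80 and -5.29 in the 6 C4-2 libraries without the combination. In the combination it was -1.81 and -1.19. The ratio of KLK2 to KLK3 was -0.58 and -0.64 under R1881 and -0.61 and -0.60 with TCE-5002, so that these neighbours rose in step. It was 0.08 and 0.10 with namoline and 0.17 and 0.18 in the combination, in both of which KLK2 counts exceeded those of KLK3. Per gene length, KLK3 stayed above KLK2 in each of these libraries. With namoline KLK3 stood at 113 and 139 TPM and KLK2 at 86.9 and 108 TPM. In the combination KLK3 stood at 39.5 and 29.2 TPM and KLK2 at 32.2 and 24.0 TPM. In the libraries labelled LNCaP the ratio of KLK2 to KLK3 counts was -2.26 and -2.47 under R1881 and -2.34 and -2.27 in the combination, ranges that overlapped.

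**Figure D4:**
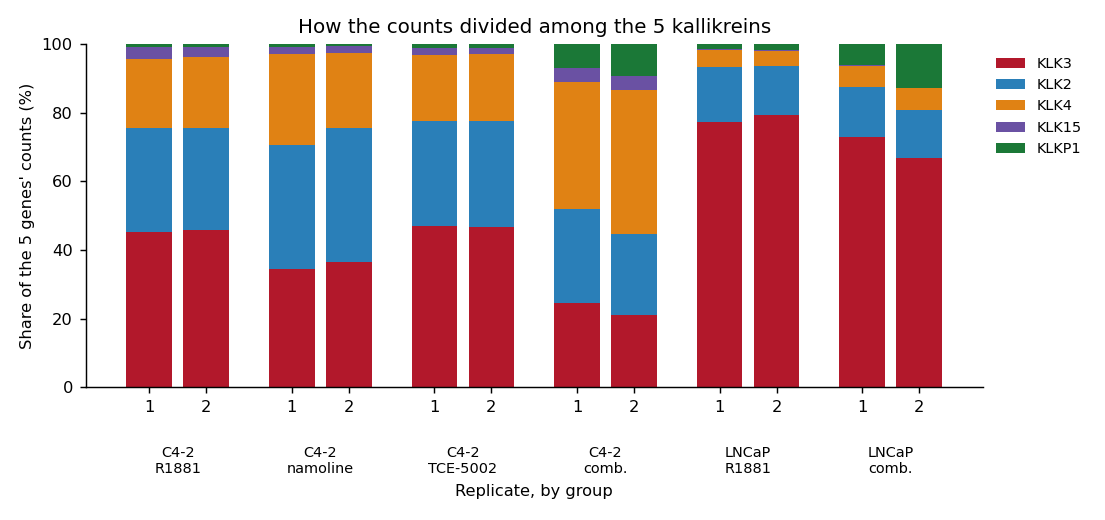
Share of the summed counts of the 5 kallikreins (percent, stacked to 100) taken by each gene in each library, with replicates 1 and 2 side by side in each group. In the C4-2 combination KLK4 took the largest share, 36.9% and 41.8%, and KLKP1 6.98% and 9.21%.

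Across the 8 C4-2 libraries, which share 4 treatments, the log2 levels of KLK2 and KLK3 followed each other (Pearson r = 0.97), as did KLK3 and KLK15 (0.92), KLK2 and KLK4 (0.90) and KLK3 and KLK4 (0.85). KLKP1 did not follow them, with r of -0.48 with KLK3 and -0.50 with KLK2. These values describe 8 libraries of 4 groups and were given no test. Among 9548 protein-coding genes with a mean of at least 10 CPM, the pattern most like that of KLK3 was found in ANKH, RAPGEF3, KCNMA1, PGK1 and CLSTN1, with r from 0.99 to 1.00. For KLK2 the closest were RIMKLA, ABCC1, CAMKK2 and LRIG1, and for KLK4 they were AFMID, SPINT2, ETFB, CFL1 and CPNE7, all at r of 0.99 or above. KLKP1 was below the 10 CPM limit and so could not appear in these lists. No other kallikrein was among the closest 5 of another.

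The remaining kallikreins of the cluster, 11 genes, were mostly too low to test, and 3 entered the C4-2 comparisons. The comparison within the libraries labelled LNCaP held 2 of them, and 11.3% of all genes fell past the threshold there. KLK1, tissue kallikrein, which releases kinins, lies beside KLK15. Its level was 7.08 and 9.23 CPM under R1881, 12.7 and 11.5 CPM with namoline, 14.0 and 16.9 CPM with TCE-5002 and 13.6 and 16.5 CPM in the combination, so that each treated library lay above both R1881 libraries. None of its changes reached 2-fold (log2 0.57, 0.93 and 0.87, adjusted p = 0.027, 0.0011 and 0.0012). Upwards, 5.07% of all genes passed the threshold with TCE-5002 and 8.90% with the combination. With TCE-5002 0 genes of this list passed upwards, and 1 did without C4-2 R1881 replicate 2 or without C4-2 TCE-5002 replicate 1. KLK7, a chymotrypsin-like protease of the skin, was at 2 and 1 counts under R1881 and 30 and 18 counts in the combination, and was the 1 gene of this list past the threshold there (log2 3.99 ± 0.76, adjusted p = 0.00046), with 2 genes past it without C4-2 R1881 replicate 2 or without C4-2 combination replicate 1. KLK14 stood at 4 and 5 against 10 and 16 counts and did not pass (log2 1.60, adjusted p = 0.11). It fell in the libraries labelled LNCaP, from 32 and 44 to 3 and 7 counts (log2 -2.58 ± 0.54, adjusted p = 0.00012), and 1 gene of this list fell there without LNCaP combination replicate 1 as well.

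Of 20 substrates, inhibitors and partners of prostate kallikreins, 11 could be tested in C4-2, and 3 fell past the threshold with the combination, where 12.8% of all genes did. The median of the list was -0.41 on the log2 scale, against -0.03 over all genes tested. F2R, a protease-activated receptor, fell from 6.37 and 6.05 to 1.53 and 1.88 CPM (log2 -1.89 ± 0.25, adjusted p = 1.5e-05). FN1, fibronectin, a matrix protein cleaved by PSA, fell by 1.58 on the log2 scale (adjusted p = 6.8e-07), and also belongs to the mesenchymal markers above. MSMB, a secreted protein of prostate fluid, fell from 16 and 10 to 0 and 4 counts (adjusted p = 0.021), a call lost without C4-2 combination replicate 1 (adjusted p = 0.17) or C4-2 R1881 replicate 1 (adjusted p = 0.077). With namoline 1 of the 11 rose, IGFBP3, a binding protein of insulin-like growth factors (log2 1.45 ± 0.22, adjusted p = 0.00013), and with TCE-5002 1 fell, PTHLH, a parathyroid hormone relative, against 5.16% and 6.83% of all genes in those directions. The number that fell with TCE-5002 was 0 by DESeq2, in a fit of only the libraries compared and without C4-2 R1881 replicate 1, and 2 without C4-2 R1881 replicate 2, without C4-2 TCE-5002 replicate 2 or with no filter on low counts. SERPINA3, an inhibitor that binds PSA in blood, had at most 5 counts in any library and was not tested. In the libraries labelled LNCaP, 3 of 10 tested genes of this list fell past the threshold, against 11.3% of all genes. They were F2RL1 (adjusted p = 1.1e-08), SPINT1 (log2 -1.09) and SPINK5 (log2 -1.01). The number was 2 without LNCaP combination replicate 1, and 1 without LNCaP R1881 replicate 2 or without LNCaP combination replicate 2.

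Androgen-induced genes outside the locus gave a scale for the kallikreins. All 30 on the list could be tested. With the combination in C4-2, 15 fell past the threshold, where 12.8% of all genes fell and 8.90% rose, and the other 15 did not pass, with a median of -0.96 on the log2 scale against -0.03 over all genes. The largest falls were those of MAF, a transcription factor, at -2.88, AZGP1, a secreted glycoprotein, at -2.50, PLPP1, a lipid phosphatase, at -2.05, and C1orf116 at -1.85. Beside these, KLK3 at -2.19 lay below all of the list but MAF and AZGP1, KLK2 at -1.41 lay within it, and KLK4 at -0.25 lay above its median. With TCE-5002, 3 of 30 passed, all upwards (ADAM7, TMPRSS2 and SPDEF), where 5.07% of all genes did, and the median was 0.40 against 0.00 over all genes. With namoline, 4 rose (ADAM7, ELL2, SPDEF and TMPRSS2), 1 fell (AZGP1) and the median was 0.45, where 5.16% of all genes rose and 6.90% fell. The number that rose with namoline was 2 without C4-2 R1881 replicate 1, 1 without C4-2 namoline replicate 2 and 2 with GC corrected. The fall of AZGP1 did not pass without C4-2 R1881 replicate 2 or without C4-2 namoline replicate 1.

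With the combination in LNCaP-labelled libraries, 7 of the 30 genes fell and 2 rose past the threshold, where 11.3% of all genes fell and 7.40% rose, and the median was -0.14 against 0.00 over all genes. Here KLK3 at -1.75, KLK2 at -1.71 and KLK4 at -1.22 all lay among the lower values of the list. Genes that fell in both lines past the threshold were AZGP1, C1orf116, MAF, PMEPA1, SLC45A3 and SPDEF, and PLPP1 was level in the libraries labelled LNCaP at 0.03. Without LNCaP combination replicate 1, 8 fell, 2 rose and PLPP1 was at -0.020. The number that rose was 1 without LNCaP R1881 replicate 2.

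**Figure D5:**
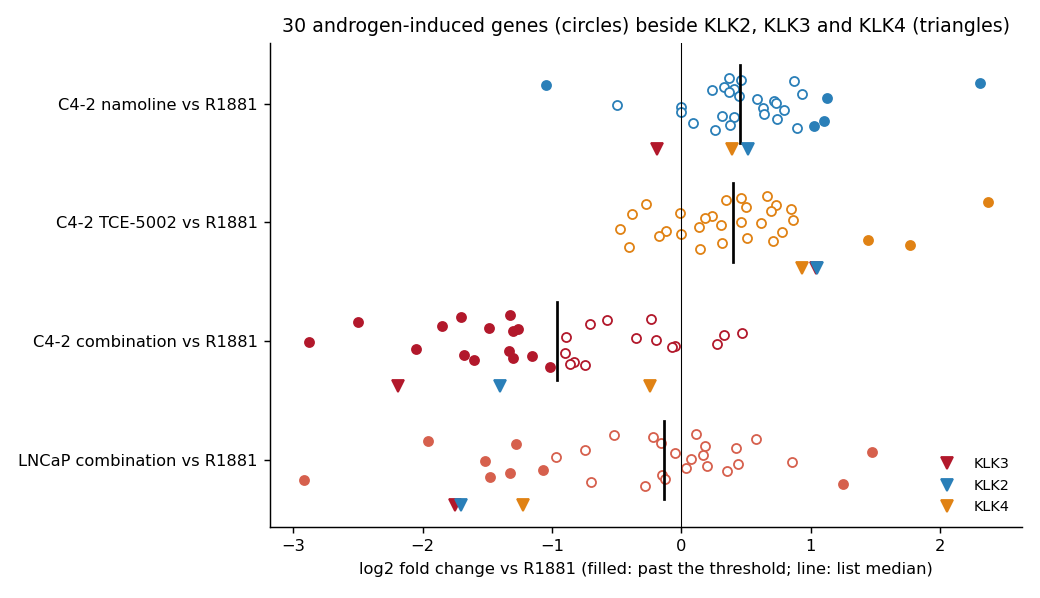
Log2 fold change against R1881 of 30 androgen-induced genes (circles, filled where past the threshold, with a vertical line at the list median) and of KLK3, KLK2 and KLK4 (triangles) in 4 comparisons. In the C4-2 combination 15 genes fell and the median was -0.96, while in the libraries labelled LNCaP 7 fell, 2 rose and the median was -0.14.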

How the data were processed

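Polyadenylated RNA was sequenced in paired ends by the authors, who filtered reads by quality, trimmed them with TrimGalore and aligned them with STAR to GRCh38. The deposited values are raw counts of fragments per gene, made by the authors with featureCounts 1.5.0-p1 and Ensembl 83 annotation, with no strand option and no normalisation.

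Counts were fitted here with edgeR 4.0.16 (limma 3.58.1, R 4.3.3) by filterByExpr, TMM scaling, the robust quasi-likelihood F test and Benjamini-Hochberg adjustment, over 17702 genes for the 8 C4-2 libraries, 17565 for the 4 LNCaP libraries and 19763 for the 8 libraries compared between lines. SE is the size of the log2 fold change divided by the root of F. CPM used TMM factors over all 12 libraries, and TPM the files' gene lengths. Likeness was Pearson r of log2 CPM (prior count 0.5). Upstream sequences were from RefSeq (GRCh38.p14), aligned with Biopython 1.88. Alternatives were DESeq2 1.42.0, RLE scaling, no count filter, a replicate block, GC correction (lowess span 0.3), adjusted p alone, fits of only the libraries compared, each library left out and, chosen after seeing the data, a non-robust fit. Steps were tested on simulated counts. The kallikreins and lists were chosen with earlier results of these data known. Named genes are the 5 kallikreins, from each list up to 4 in each direction with the largest called change in the C4-2 combination, and for KLK2, KLK3 and KLK4 the 5 most alike in pattern, of which a gene is not reported here. Other genes (KLK1, KLK14 and further list genes) were named after their values were seen.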

Additional observations from a re-analysis of the deposited data

Results flagged for a closer look

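By the test of the difference itself, the effect of the combination on KLK4 and on KLKP1 differed between the lines at an adjusted p under 0.05. So did that on 9431 of all 19763 genes tested, and 25.4% of all genes were past the threshold. The log2 fold change of KLK4 was higher by 0.93 in C4-2 than in the libraries labelled LNCaP (adjusted p = 6.3e-05), which is under 2-fold, and that of KLKP1 by 1.14 (adjusted p = 0.00087), which was 0.86 without LNCaP combination replicate 1, the library whose header names no TCE-5002. The difference of KLK4 was 1.10 without that library. The mesenchymal and luminal marker levels differed between the lines as given above, and their part in these differences was not tested.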

How the results depend on the processing

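Of the 134 values of how many kallikreins passed under an alternative, 121 were within 1.5 times the reported count. With adjusted p alone the numbers past the threshold were 3 for namoline, 5 for TCE-5002 against namoline and 5 for the interaction. Of all 17702 genes tested, 6218, 3273 and 9489 passed by that rule in these comparisons. For the C4-2 effect set against that in LNCaP the number was 2, and for the R1881 level 5. There 9431 and 15188 of all 19763 genes tested passed. With GC correction, alone or with the replicate block, TCE-5002 against R1881 gave 1 and the combination against TCE-5002 gave 2. Leaving out 1 library at a time gave 1 to 4 for TCE-5002 against R1881, 1 to 2 for the C4-2 effect against that in LNCaP and 2 to 4 for the R1881 level. The replicate numbers do not pair the samples by the labels, and deviations of same-numbered C4-2 libraries correlated at -0.02 to 0.44. With the replicate block alone no kallikrein count moved (3 for the C4-2 combination), and the KLK3 difference between the lines was -0.49 (adjusted p = 0.017). Of 658 kallikrein fold changes under alternatives, 610 kept direction and call. Direction turned, in values near 0 or of low counts, for KLKP1 with namoline (-0.092 to 0.025 leaving out libraries), KLK15 between the lines (-0.70 to 0.73), KLK7 with namoline (-3.67 to 1.03), PLPP1 with namoline (-0.088 to 0.049, and 0.0086 with no filter on low counts) and in the LNCaP combination (-0.074 to 0.13), and FN1 in the LNCaP combination (-0.35 to 0.11). The cause was not tested.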
